A study of Rattus norvegicus with 9 samples.

Results

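Expression of 10 genes of opioid, corticotropin-releasing factor (CRF) and neuropeptide Y signalling was followed across the genotypes of an Lrap deletion in rat brain. They are the opioid peptide precursors Pdyn and Pnoc, the opioid receptors Oprm1, Oprd1, Oprk1 and Oprl1, the CRF receptor Crhr1 with the CRF-binding protein gene Crhbp, and the neuropeptide Y receptors Npy1r and Npy2r. Each was taken as the assembled locus that carries the gene's name and overlaps its annotated exons on the same strand, and all 10 of 10 were found among the 114601 loci of the count matrix. Where a name had 2 such loci, as Crhr1 did, the locus with more counts was used. Loci that carry a name but lie inside an intron, beyond the gene's end or on the other strand were not eligible, whatever their counts. All 10 passed the filter on low counts.

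The RNA came from whole brains of 9 male, alcohol-naive Wistar rats, 3 per genotype. Wild-type controls were Wistar rats from Charles River, and the others carried 1 or 2 copies of the Crl:WI-Lrapem1Geh allele, a CRISPR/Cas9 deletion of 618 bp at Lrap, a long non-coding RNA. The deletion is constitutive, all mutant rats carry the same allele, no treatment was given, and neither the ages of the rats nor whether they were littermates is stated in the labels. Total RNA was depleted of ribosomal RNA and sequenced with strand kept, 1 library per rat.

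Opioid receptors are receptors on neurons that couple to inhibitory G proteins and lower neuronal firing and transmitter release. Pdyn encodes the precursor of the dynorphins, which act mainly on the kappa receptor (Oprk1), and Pnoc that of nociceptin, the ligand of Oprl1; the mu and delta receptors (Oprm1, Oprd1) bind enkephalins and beta-endorphin. CRF acts through Crhr1 in the brain's stress response and is bound outside cells by the Crhbp protein, while neuropeptide Y acts through Npy1r and Npy2r, the latter often on nerve endings that release the peptide itself. These systems are studied widely in stress and in alcohol drinking.

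In rn6 coordinates of the deposited assembly, the peptide precursors lie at chr3:122194329-122206671 (minus strand, MSTRG.69051, 4 exons) for Pdyn and chr15:48805228-48833285 (minus strand, MSTRG.35381, 4 exons) for Pnoc. Oprm1 lies at chr1:43475418-43537782 (plus strand, MSTRG.1717, 5 exons), Oprk1 at chr5:13744658-13760305 (minus strand, MSTRG.79353, 4 exons) and Oprl1 at chr3:177225737-177241961 (plus strand, MSTRG.71896, 6 exons). Crhr1 lies at chr10:92191718-92233633 (plus strand, MSTRG.18113, 13 exons) and Crhbp at chr2:25141471-25153334 (minus strand, MSTRG.52047, 7 exons). Npy1r lies at chr16:24779477-24789087 (minus strand, MSTRG.38443, 4 exons) and Npy2r, assembled as a single exon, at chr2:181530832-181531978 (minus strand, MSTRG.58002, 1 exon). Exon numbers are those of the isoform with the most exons, and loci assembled on the opposite strand over these genes held at most 3.89 counts per library on average where they shared exons.

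The libraries held between 27489383 and 46975919 expected counts, and no pair within a genotype agreed within sampling noise. Of the 2 isoforms of the Lrap locus MSTRG.24458, isoform MSTRG.24458.2 followed the labels: 2.26 ± 0.355 CPM (counts scaled to a library of fixed size) with no deleted copy, 1.05 ± 0.0591 with 1 and 0.353 ± 0.0775 with 2 (SD over 3 rats). The other isoform, MSTRG.24458.1, did not (3.07 ± 0.684, 3.17 ± 0.293 and 3.70 ± 0.884 CPM), and the locus total overlapped between genotypes, at 4.59 to 6.12 CPM in wild-type rats with homozygous rat 1 inside that range. Wild-type rat 2 stood apart, with 40.4% of its counts on mitochondrial genes against 14.8% to 28.1% in the other 8 libraries. It was the lowest of the 9 libraries at 51.6% of the 15204 tested loci that hold the most counts for a gene symbol (symbol loci). It was also the lowest at 7 of the 10 genes described here. Wild-type rat 3 was the highest at 28.0% of those loci and at 4 of the 10 genes. Homozygous against wild type is therefore given with and without these rats where the value turns on them. For heterozygous against wild type this is done for Crhr1 and Npy2r, and ranges are given for genes whose sign turned. In whole tissue, fewer cells that express a gene and less RNA per cell cannot be told apart.

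Per length, the precursor Pdyn was the most abundant of the 10 genes and the locus taken for the delta receptor Oprd1 the least. A same-named locus downstream of Oprd1, described below, held more counts and is not part of this order. The place of Oprd1 with that locus added was not computed. Mean deposited TPM (counts divided by length and scaled to a fixed total) over the 9 libraries were 3.17 ± 1.07 for Pdyn, 2.44 ± 0.71 for Oprl1 and 1.65 ± 0.452 for Crhr1 (SD, n = 9). Next came Npy1r at 1.44 ± 0.357, Crhbp at 1.26 ± 0.473, Pnoc at 1.01 ± 0.297 and Oprm1 at 0.701 ± 0.271 TPM. Npy2r at 0.482 ± 0.245, Oprk1 at 0.378 ± 0.206 and Oprd1 at 0.212 ± 0.106 TPM closed the order. Among symbol loci tested, Pdyn stood at the 61.5th percentile of mean TPM and Oprd1 at the 9.18th, so these are low to middling transcripts in whole brain.

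Pdyn was above Oprl1, and Pnoc above Oprm1, in all 9 libraries. Oprl1 was above Crhr1, and Oprm1 above Npy2r, in 8 of 9, and Oprk1 above Oprd1 in 7 of 9. The other 4 neighbouring pairs (Crhr1 and Npy1r, Npy1r and Crhbp, Crhbp and Pnoc, Npy2r and Oprk1) kept their order in 6 of 9 libraries, and their levels overlapped widely. CPM divided by length gave the same order. Without division by length, Oprl1 was the highest in CPM and Oprm1 came after Oprl1 and Pdyn, both being long assembled transcripts.

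**Figure D1:**
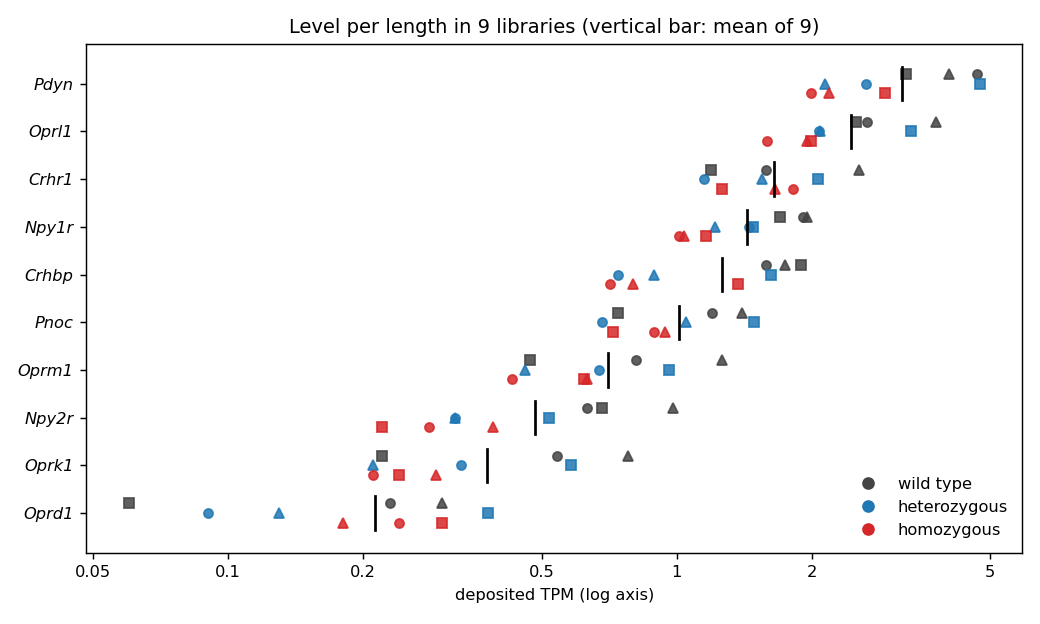
Deposited TPM of the 10 genes on a log axis; each point is 1 library, coloured by genotype, with circles, squares and triangles for rats 1, 2 and 3 of a genotype and a vertical bar for the mean of 9. Pdyn (mean 3.17 TPM) and Oprl1 (2.44) lie at the top, Oprd1 (0.212, without its downstream locus) at the bottom, and neighbouring genes overlap.

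The prodynorphin gene Pdyn was at near-equal levels in all genotypes. Its CPM, scaled by the trimmed mean of M-values (TMM), was 16.7, 11.7 and 12.9 in wild-type rats 1, 2 and 3, 13.4, 15.6 and 12.4 in the heterozygous rats, and 12.2, 16.5 and 13.3 in the homozygous rats. The 3 genotypes overlapped throughout, with wild-type rat 1 highest and wild-type rat 2 lowest. The log2 fold change of homozygous against wild type was 0.03 (SE 0.19; edgeR quasi-likelihood test with Benjamini-Hochberg adjustment over all loci, adjusted p = 0.966).

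Pdyn was also the 1 gene among those matched whose promoter held a TATA box. RefSeq promoter windows (the 250 bases before the start, build GRCr8) were matched by symbol for 7 of the 10 genes: Pdyn, Oprm1, Oprd1, Crhr1, Crhbp, Npy1r and Npy2r, with 2 windows each for Oprm1 and Crhr1. The window of Pdyn, the most abundant of the 10, is at chr3:137366504-137366753 on the minus strand. Capitals mark TATAAA and CCAAT, the latter on the reverse strand as ATTGG.
Pdyn: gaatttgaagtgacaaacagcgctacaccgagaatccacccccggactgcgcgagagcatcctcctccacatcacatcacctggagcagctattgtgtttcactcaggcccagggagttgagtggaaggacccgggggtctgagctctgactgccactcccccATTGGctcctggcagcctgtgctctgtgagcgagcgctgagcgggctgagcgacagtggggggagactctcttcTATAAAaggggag
Of 33469 rat promoter windows of this length, 12.9% held TATAAA and 34.0% held CCAAT on either strand. The full cyclic AMP response element TGACGTCA was in none of the 7 genes' windows (1.59% of all windows), and its 5-base core TGACG was in those of Npy1r and Crhbp (18.2% of all; every full element also holds the core). These matches describe letters in a window, not binding.

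Pnoc, the nociceptin precursor gene, was lowest in wild-type rat 2 and higher in the mean of each mutant genotype. Its level was 1.89, 1.04 and 2.05 CPM in wild-type rats 1, 2 and 3, 1.69, 2.05 and 2.54 CPM in the heterozygous rats, and 2.64, 1.86 and 2.53 CPM in the homozygous rats. The homozygous range began inside the wild-type range. The log2 fold change of homozygous against wild type was 0.49 (SE 0.30; edgeR adjusted p = 0.577), and it was 0.25 without wild-type rat 2 and 0.70 without wild-type rat 3. On library totals with no TMM scaling it was 0.17.

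Of the receptors, Oprm1 (mu) varied more among the wild-type rats than between genotypes. It stood at 13.1, 7.26 and 16.4 CPM in wild-type rats 1, 2 and 3, at 15.1, 13.3 and 11.6 CPM in the heterozygous rats and at 11.3, 12.2 and 14.2 CPM in the homozygous rats. Wild-type rats held both the lowest and the highest value, and all 6 mutants lay between them. The log2 fold change of homozygous against wild type was 0.04 (SE 0.25; edgeR adjusted p = 0.961), and its sign turned with the library left out: it was -0.23 without wild-type rat 2 and 0.34 without wild-type rat 3.

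By TMM-scaled CPM, Oprd1 (delta) was the 1 gene of the 10 with all 3 homozygous rats above all 3 wild-type rats. It had 0.459, 0.130 and 0.524 CPM in wild-type rats 1, 2 and 3, from 18, 5 and 21 counts. The heterozygous rats had 0.263, 0.684 and 0.419 CPM, from 12, 34 and 16 counts, and the homozygous rats 0.793, 0.956 and 0.602 CPM, from 18, 41 and 24 counts. The heterozygous range overlapped both others. Of all 39057 loci tested, 7.28% likewise had every homozygous rat above every wild-type rat. The share of symbol loci was not taken, and 73.2% of them had positive log2 fold changes against 44.3% of all loci. By deposited TPM the genotypes overlapped, at 0.23, 0.06 and 0.30 in wild-type and 0.24, 0.30 and 0.18 in homozygous rats.

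The mean of Oprd1 in homozygous rats was 211% of wild type, with a log2 fold change of 1.07 (SE 0.48; edgeR adjusted p = 0.544). Its unadjusted p was under 0.05. Leaving out wild-type rat 2 gave 0.67, leaving out wild-type rat 3 gave 1.43, and library totals with no TMM scaling gave 0.77. Without wild-type rat 1 or 2, and on library totals, the unadjusted p was no longer under 0.05. Adjusted p was above 0.05 under every setting tried. The counts of the locus taken for Oprd1 are the lowest of the 10, and a filter of 1 CPM in 3 libraries removes it.

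The Oprd1 locus (MSTRG.84575, rn6 chr5:150288126-150323063, minus strand, 3 exons) is followed 1097 bp downstream, on the same strand, by a locus that carries the same name (MSTRG.84570, chr5:150284922-150287028) and more counts, 1202 against 189 over the 9 libraries. That downstream locus held 3.26 ± 0.464 CPM with both Lrap copies intact, 3.34 ± 0.705 with 1 deleted and 3.37 ± 0.542 with both deleted (SD over 3 rats), a log2 fold change of 0.05 (SE 0.24) for homozygous against wild type. With its counts added to those of Oprd1, the log2 fold change was 0.20 (edgeR adjusted p = 0.765). Whether the downstream locus is part of the Oprd1 transcript was not tested.

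Oprk1 (kappa), the dynorphin receptor, stood at 2.04, 0.856 and 2.65 CPM in wild-type rats 1, 2 and 3, at 1.77, 2.01 and 1.31 CPM in the heterozygous rats and at 1.37, 1.42 and 1.91 CPM in the homozygous rats. As for Oprm1, the wild-type rats spanned the whole range. Homozygous against wild type gave a log2 fold change of -0.23 (SE 0.37; edgeR adjusted p = 0.831). It was -0.57 without wild-type rat 2 and 0.15 without wild-type rat 3, so its direction rests on single wild-type rats.

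Oprl1, the nociceptin receptor, had the most counts of the 10 genes and the narrowest spread. It stood at 39.0, 33.7 and 46.1 CPM in wild-type rats 1, 2 and 3, at 42.3, 42.6 and 43.7 CPM in the heterozygous rats and at 36.7, 44.0 and 43.4 CPM in the homozygous rats. The highest library was 1.37 times the lowest, against a median of 1.73 times over tested symbol loci. Homozygous against wild type gave 0.06 on the log2 scale (SE 0.15; edgeR adjusted p = 0.895).

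Crhr1, the CRF receptor through which CRF raises cyclic AMP, had the smallest p of the 10 genes. It stood at 4.87, 3.37 and 6.72 CPM in wild-type rats 1, 2 and 3, at 4.99, 5.86 and 7.48 CPM in the heterozygous rats and at 9.08, 6.18 and 8.63 CPM in the homozygous rats. Homozygous rats 1 and 3 were the highest 2 of the 9 libraries and wild-type rats 1 and 2 the lowest 2, while homozygous rat 2 lay below wild-type rat 3. Wild-type rats averaged 4.99 ± 1.68 CPM, heterozygous rats 6.11 ± 1.27 and homozygous rats 7.96 ± 1.56 (SD over 3 rats).

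The log2 fold change of Crhr1 in homozygous against wild type was 0.67 (SE 0.27; edgeR adjusted p = 0.544), with an unadjusted p under 0.05. It was 0.46 without wild-type rat 2, 0.98 without wild-type rat 3 (edgeR adjusted p = 0.0894) and 0.33 on library totals with no TMM scaling. Without wild-type rat 1 or 2, and on library totals, the unadjusted p was no longer under 0.05. A second same-strand locus that overlaps the start of Crhr1 (MSTRG.18106) had 550 counts against 2210 and a log2 fold change of 0.23 (SE 0.25) in the same comparison. Heterozygous against wild type was 0.29 (SE 0.27), and 0.07 without wild-type rat 2.

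In the main test of homozygous against wild type, Oprd1 and Crhr1 were the 2 genes with an unadjusted p under 0.05. Their RefSeq promoter windows are shown because both are rich in G and C. GC content is 79.6% for Oprd1 and 75.2% for Crhr1, against a median of 51.2% over all windows, with 34 and 27 CpG dinucleotides against a median of 5. The windows of the other 5 genes held 36.4% to 59.2% GC. Npy2r is shown as the 1 gene whose window held the AP-1 motif. With windows for 7 of the 10 genes, a check of GC content against the fold changes is void and was not made. The windows are at chr5:149625000-149625249 (minus strand) for Oprd1, chr10:89539959-89540208 (plus strand) for the downstream of the 2 Crhr1 windows and chr2:170203101-170203350 (minus strand) for Npy2r, all GRCr8. Capitals mark CCAAT (as ATTGG) and the AP-1 motif TGANTCA, which 6.34% of all windows hold on either strand.
Oprd1: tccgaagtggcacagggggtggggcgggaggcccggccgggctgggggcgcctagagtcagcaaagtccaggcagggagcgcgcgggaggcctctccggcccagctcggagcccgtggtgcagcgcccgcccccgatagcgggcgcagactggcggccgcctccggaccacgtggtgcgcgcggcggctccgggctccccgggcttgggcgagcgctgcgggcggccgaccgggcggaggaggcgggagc
Crhr1: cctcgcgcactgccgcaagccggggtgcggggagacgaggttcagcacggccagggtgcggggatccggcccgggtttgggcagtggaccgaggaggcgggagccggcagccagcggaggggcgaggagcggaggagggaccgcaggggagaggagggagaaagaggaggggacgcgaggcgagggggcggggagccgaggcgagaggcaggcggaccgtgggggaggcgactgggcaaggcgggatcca
Npy2r: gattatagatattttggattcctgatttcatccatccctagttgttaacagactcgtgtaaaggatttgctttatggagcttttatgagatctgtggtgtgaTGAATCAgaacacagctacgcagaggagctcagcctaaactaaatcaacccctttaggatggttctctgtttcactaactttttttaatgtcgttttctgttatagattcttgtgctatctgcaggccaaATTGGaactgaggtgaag
None of the motifs searched was found in the windows of Oprd1 and Crhr1.

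Crhbp, whose protein holds CRF away from its receptors, stood at 3.67, 4.44 and 3.60 CPM in wild-type rats 1, 2 and 3, at 2.43, 3.46 and 3.35 CPM in the heterozygous rats and at 2.82, 5.06 and 3.13 CPM in the homozygous rats. All 3 heterozygous rats lay below all 3 wild-type rats, by a small margin, whereas homozygous rat 2 was the highest of the 9. On the log2 scale the difference was -0.34 (SE 0.26; edgeR adjusted p = 0.981) for heterozygous and -0.08 (SE 0.26; edgeR adjusted p = 0.924) for homozygous against wild type.

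Npy1r, the neuropeptide Y receptor that mostly sits on receiving neurons, stood at 7.87, 7.06 and 6.92 CPM in wild-type rats 1, 2 and 3, at 8.49, 5.62 and 7.77 CPM in the heterozygous rats and at 6.92, 7.41 and 7.25 CPM in the homozygous rats. The genotypes overlapped, with the lowest and the highest library both heterozygous; as for Npy2r and Crhbp, wild-type rat 2 was not the lowest. Homozygous against wild type gave -0.02 on the log2 scale (SE 0.19; edgeR adjusted p = 0.979).

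Npy2r, the receptor found on neuropeptide Y nerve endings, had its highest mean in the wild-type rats. It stood at 0.968, 1.06 and 1.35 CPM in wild-type rats 1, 2 and 3, at 0.700, 0.745 and 0.811 CPM in the heterozygous rats and at 0.749, 0.536 and 1.03 CPM in the homozygous rats. All 3 heterozygous rats lay below all 3 wild-type rats, and homozygous rat 3 overlapped them. Log2 fold changes were -0.58 (SE 0.31; edgeR adjusted p = 0.981) for heterozygous and -0.55 (SE 0.31; edgeR adjusted p = 0.559) for homozygous against wild type. These 2 comparisons share the wild-type rats, and without wild-type rat 3 the values were -0.40 and -0.37.

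**Figure D2:**
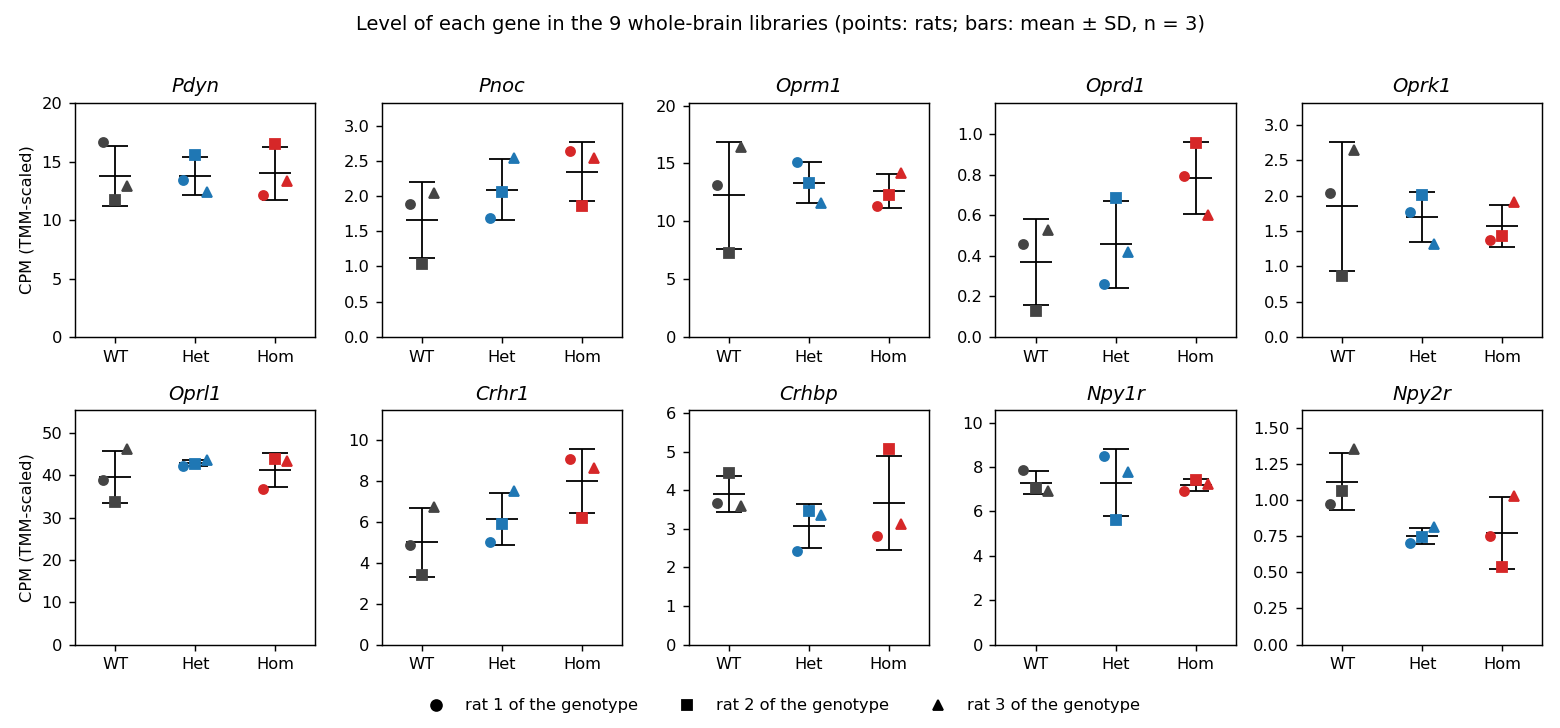
TMM-scaled CPM of each gene by genotype (WT, wild type; Het, heterozygous; Hom, homozygous); points are rats, and bars give the mean and SD (n = 3). Wild-type rat 2 (grey square) is the lowest library in 7 of 10 panels, and Oprd1 is the 1 panel in which all homozygous rats lie above all wild-type rats.

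Across the 10 genes, none passed an adjusted p of 0.05 in any of the 3 comparisons by edgeR, DESeq2 or limma-voom. In homozygous against wild type, where edgeR called 0% of all loci, adjusted p ranged from 0.544 to 0.979. Unadjusted p was under 0.05 for 2 of the 10 genes, Crhr1 and Oprd1, both with higher means in the homozygous rats. Over all loci 9.13% passed that unadjusted threshold, 4.88% with higher levels, and over symbol loci 11.4% passed it. The median log2 fold change of the 10 genes was 0.03, beside -0.07 for all 39057 loci and 0.14 for the 15204 symbol loci. Positive values were found for 6 of the 10 genes, 44.3% of all loci and 73.2% of symbol loci.

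In heterozygous against wild type no gene of the 10 had an unadjusted p under 0.05 (3.72% of all loci did, and edgeR called 0.00768%). Npy2r and Crhbp were the 2 genes whose genotypes did not overlap, both lower in the heterozygous rats, as were 3.8% of all loci. The median log2 fold change was 0.06 for the 10 genes, beside -0.04 for all loci and 0.08 for symbol loci. With each rat left out in turn, the sign changed for Oprm1 (-0.14 to 0.43), Oprk1 (-0.46 to 0.27) and Oprd1 (-0.15 to 0.67). It also changed for Pdyn (-0.10 to 0.17) and Npy1r (-0.097 to 0.16). In homozygous against heterozygous no gene had an unadjusted p under 0.05 (1.71% of all loci did, and edgeR called 0.00256%), and all 10 overlapped (8.83% of all loci did not). The values furthest from 0 were 0.77 (SE 0.47) for Oprd1 and 0.38 (SE 0.27) for Crhr1.

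The sign of the smaller values depended on the scaling. Scaling on symbol genes moved the median of all loci in homozygous against wild type from -0.07 to -0.24. That of symbol loci, further loci of the same symbols included, moved from 0.14 to -0.02. Oprm1, Oprl1 and Pdyn then had log2 fold changes of -0.09, -0.10 and -0.15 in place of small positive values, and -0.28, -0.25 and -0.26 on library totals with no TMM scaling. Crhr1, Oprd1 and Pnoc stayed positive and Npy2r, Oprk1 and Crhbp negative in that comparison under each of the scalings tried (TMM, DESeq2 size factors, symbol genes and library totals).

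**Figure D3:**
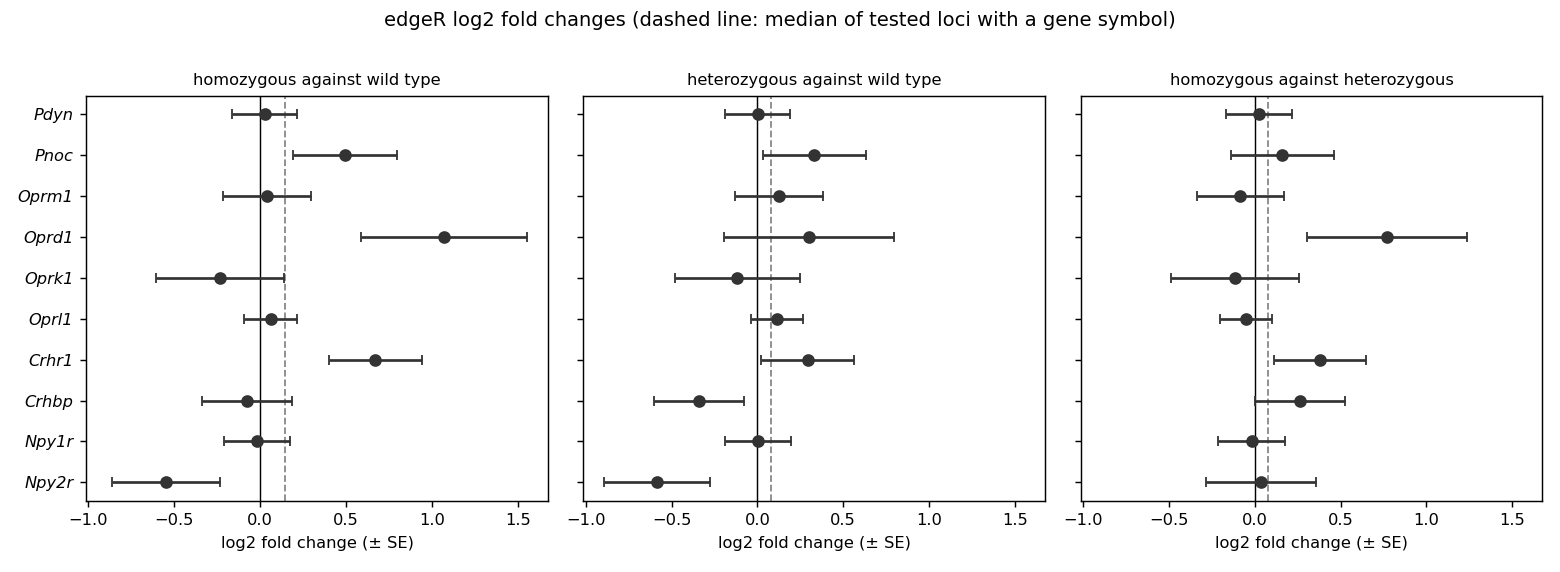
Log2 fold changes by edgeR with their SE for the 10 genes in the 3 comparisons; the solid line is 0 and the dashed line the median of tested symbol loci. Oprd1 (1.07) and Crhr1 (0.67) lie furthest right and Npy2r (-0.55) furthest left in homozygous against wild type, and none passed adjustment.

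Deposited TPM gave another picture of direction. By mean TPM 9 of the 10 genes were lower in homozygous than in wild-type rats, whereas by TMM-scaled CPM 6 of 10 were higher. The homozygous mean was 38.9% of wild type for Npy2r, 57.7% for Npy1r, 59.3% for Pdyn and 89.1% for Crhr1, and Oprd1 alone was above 100%, at 122%. The same held for most genes: 96.2% of tested symbol loci had a lower mean TPM in homozygous rats, with a median of 64.3% of wild type, and the median of the 10 genes was 60.6%. For 5 of the 10 (Oprl1, Pdyn, Npy1r, Npy2r and Crhbp) every homozygous rat lay below every wild-type rat by TPM, as did 53.8% of all loci and 56% of symbol loci. CPM on library totals with no TMM scaling gave a median log2 fold change of -0.18 for symbol loci, further loci of the same symbols included. Loci shorter than 350 bp held 63.1 ± 7.10% of TPM in wild-type and 67.3 ± 3.80% in homozygous rats (SD, n = 3), and the 7SL RNA gene Rn7sl1 held 9.64 ± 4.47% and 13.9 ± 1.18%. TMM factors were 1.04 to 1.18 in wild-type and 0.826 to 0.987 in homozygous rats. The part of these shares in the difference between units was not tested.

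The assembly split 5 of the genes into 2 to 8 isoforms, and 22 isoforms in all were tested in homozygous against wild type. None had an adjusted p under 0.05 by edgeR (0% of 63699 isoforms did), and none had an unadjusted p under 0.05 (6.91% of all isoforms did). The smallest p was that of the leading Crhr1 isoform (MSTRG.18113.1; edgeR adjusted p = 0.680).

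Oprm1 had 2 isoforms, the longer with 5 exons and 11456 bp and the shorter (MSTRG.1717.2) with 4 exons and 4044 bp, starting downstream of the longer isoform's first exon. The shorter isoform held 5.55%, 7.95% and 11.8% of Oprm1 counts in wild-type rats 1, 2 and 3, 6.11%, 8.70% and 7.94% in the heterozygous rats, and 7.53%, 22.4% and 17.8% in the homozygous rats. Homozygous rats 2 and 3 were the highest of the 9 libraries, and homozygous rat 1 lay within the wild-type range. Its log2 fold change was 0.93 (SE 0.55; edgeR adjusted p = 0.683), beside -0.08 (SE 0.29) for the longer isoform.

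Oprl1 had 8 isoforms, of which the leading one (MSTRG.71896.1) held 56.7%, 49.6% and 60.4% of counts in wild-type rats 1, 2 and 3, 67.6%, 61.0% and 64.8% in the heterozygous rats, and 68.4%, 70.8% and 64.2% in the homozygous rats. All 6 mutant libraries lay above the 3 wild-type libraries in this share, by a narrow margin between heterozygous rat 2 and wild-type rat 3. It was the 1 such isoform of 17 in the genes with several isoforms, and of 35504 tested isoforms in such loci 3.47% had all mutants on the same side of all wild-type rats. The share has no test of its own here. In CPM the same isoform had a log2 fold change of 0.33 (SE 0.21; edgeR adjusted p = 0.690). The isoform second in share (MSTRG.71896.5) held 15.5 ± 1.54%, 11.3 ± 2.61% and 10.8 ± 3.79% in wild-type, heterozygous and homozygous rats (SD, n = 3 each). Shares are of all 8 isoforms, none of which matched an annotated transcript exactly. They include MSTRG.71896.7 and MSTRG.71896.8, which start beyond the leading isoform's end and held 2.40% and 0.309% of counts on average.

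Pnoc had 2 isoforms, and the shorter one, of 949 bp, held 62.6% of counts on average and the larger share in 7 of the 9 libraries. The longer one (MSTRG.35381.1, 2013 bp) ranged from 19.1% in wild-type rat 2 to 51.0% in heterozygous rat 1, and the genotypes overlapped in its share. Its log2 fold change was 0.73 (SE 0.48; edgeR adjusted p = 0.696) and that of the shorter one 0.32 (SE 0.36; edgeR adjusted p = 0.806). RSEM divides shared reads among isoforms by estimation, so these shares carry an error that the counts do not show.

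**Figure D4:**
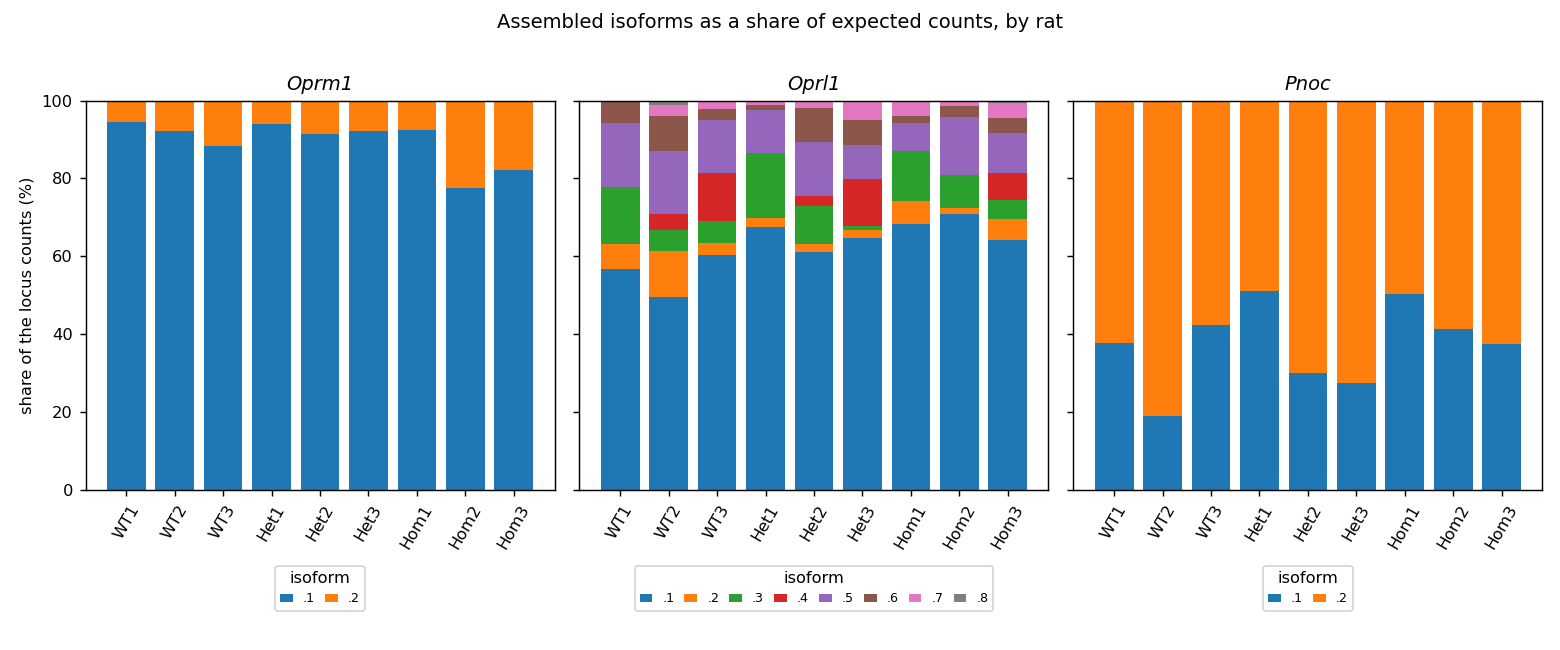
Share of each gene's expected counts held by its assembled isoforms in every library, for Oprm1, Oprl1 and Pnoc (colours are the isoform numbers of the assembly; WT, wild type; Het, heterozygous; Hom, homozygous). The shorter Oprm1 isoform (number 2) is largest in homozygous rats 2 and 3, at 22.4% and 17.8%.

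The 10 genes did not vary together as a single group over the 9 libraries. The highest Pearson correlations of log2(CPM + 0.5) between them were 0.95 for Pnoc and Crhr1, 0.92 for Oprm1 and Oprk1 and 0.82 for Oprm1 and Oprl1. The lowest was -0.45, for Oprm1 and Crhbp. Pairs share the libraries' depth, scaling and regional makeup, and 3 genotypes, so these values describe 9 libraries and carry no test.

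Of 13383 symbol genes with a mean of at least 1 CPM, those most like Crhr1 over the 9 libraries were Irf2bp1 (r = 0.99) and the ribosomal protein gene Rpl19 (0.99). The most like Pnoc were Cog1 (0.98) and Ndufv3 (0.98), the latter a subunit of mitochondrial complex I. Those most like Oprd1 were Ap1s1 (0.98) and Ajap1 (0.97). Each was picked as the most alike of 13383 genes over these same 9 libraries, so a high r follows in part from the choice. With the 2 libraries furthest from its median left out, Crhr1 had r = 0.99 with Irf2bp1. Over all genes named here and below, r then fell as low as 0.35, for Npy1r with Akr1b8.

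Oprm1 was most like Tmem88b (0.98) and AABR07008309.1 (0.97), and Oprk1 most like Dixdc1 (0.98) and the oligodendrocyte gene Opalin (0.95). Oprl1 was most like Rnf213 (0.97) and the calcitonin receptor gene Calcr (0.95), and Pdyn most like the potassium channel subunit gene Kcns2 (0.95) and the alpha-actinin gene Actn2 (0.93). For Crhbp they were Angel2 (0.95) and Actr3b (0.93), and for Npy2r Gtpbp8 (0.92) and Abi1 (0.92). Npy1r had the weakest partners, Akr1b8 (0.86) and Lingo2 (0.81), and its r with Akr1b8 was 0.35 without heterozygous rats 1 and 2.

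The low values of wild-type rat 2 went with low levels of regional markers, but not of these alone. It was the lowest library at 51.6% of tested symbol loci. Hypothalamic markers (Avp, Oxt, Hcrt, Pmch, Agrp, Pomc, Trh and Cartpt) summed to 11.6 to 36.1 CPM in wild-type, 25.4 to 39.7 in heterozygous and 28.7 to 39.6 in homozygous rats. Wild-type rat 2 had the 11.6 CPM and was the lowest library for 7 of these 8 genes, and only Hcrt was at 0 in any library. Striatal markers such as Drd1, Drd2 and Penk summed to 133 to 283.5 CPM in wild-type, 213 to 245 in heterozygous and 247 to 292 in homozygous rats, and wild-type rat 2 was the lowest for 8 of 8.

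Thalamic markers summed to 97.1 to 187 CPM in wild-type, 123.5 to 164.5 in heterozygous and 149 to 159 in homozygous rats (lowest in wild-type rat 2 for 6 of 7). Markers of GABAergic neurons summed to 162 to 357, 241 to 317 and 285 to 371 CPM in the same order (6 of 8). Wild-type rat 2 was the lowest library in each of these 4 sums, and the part of regional makeup in the values of Pnoc, Crhr1, Oprd1, Oprm1 and Oprk1 was not tested.

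Of the other marker lists, the hippocampal, pituitary and brain-defining sums were also lowest in wild-type rat 2, though it was the lowest library for 0 of the 5 hippocampal genes. Cerebellar markers summed to 71.5, 72.1 and 534 CPM in wild-type rats 1, 2 and 3. The sums were 154, 196 and 268 CPM in the heterozygous and 428, 73.2 and 345 CPM in the homozygous rats. Crhr1 ranked the rats as this sum did within each mutant genotype, and both were highest in wild-type rat 3 among wild-type rats. Wild-type rat 3 had the highest sum of the 9 libraries but not the highest Crhr1. The part of cerebellar content in the values of Crhr1 was not tested. Pineal markers stood at 102 and 105 CPM in heterozygous rats 2 and 3 against at most 12.1 elsewhere. Cortical excitatory markers ranged from 340 to 484 CPM and hippocampal markers (5 of 7 found) from 65.9 to 82.8 CPM. Choroid plexus markers ranged from 206 to 559.5 CPM, highest in wild-type rat 2. Of the markers of GABAergic neurons 2 of 8, and of the brain-defining markers 2 of 9, had an unadjusted p under 0.05 with higher levels in homozygous than in wild-type rats (4.88% of all loci). The run on symbol loci alone also kept further loci of the same symbols. In it, 1876 of 16576 loci had higher levels in homozygous rats at an unadjusted p under 0.05 and 210 had lower ones. Blood markers (6 of 7 found) summed to 356 to 689 CPM in wild-type, 245 to 477 in heterozygous and 356 to 377 in homozygous rats, and 5 of 6 had an unadjusted p under 0.05 with lower levels in homozygous rats (4.25% of all loci); the part of these 3 lists in the values of the 10 genes was not tested. Pituitary markers stayed at or under 6.55 CPM, and the sum of 9 brain-defining markers, including Snap25, Rbfox3 and Mbp, lay between 3159 and 6319 CPM in every library, and wild-type rat 2 was the lowest for 8 of these 9 genes.

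**Figure D5:**
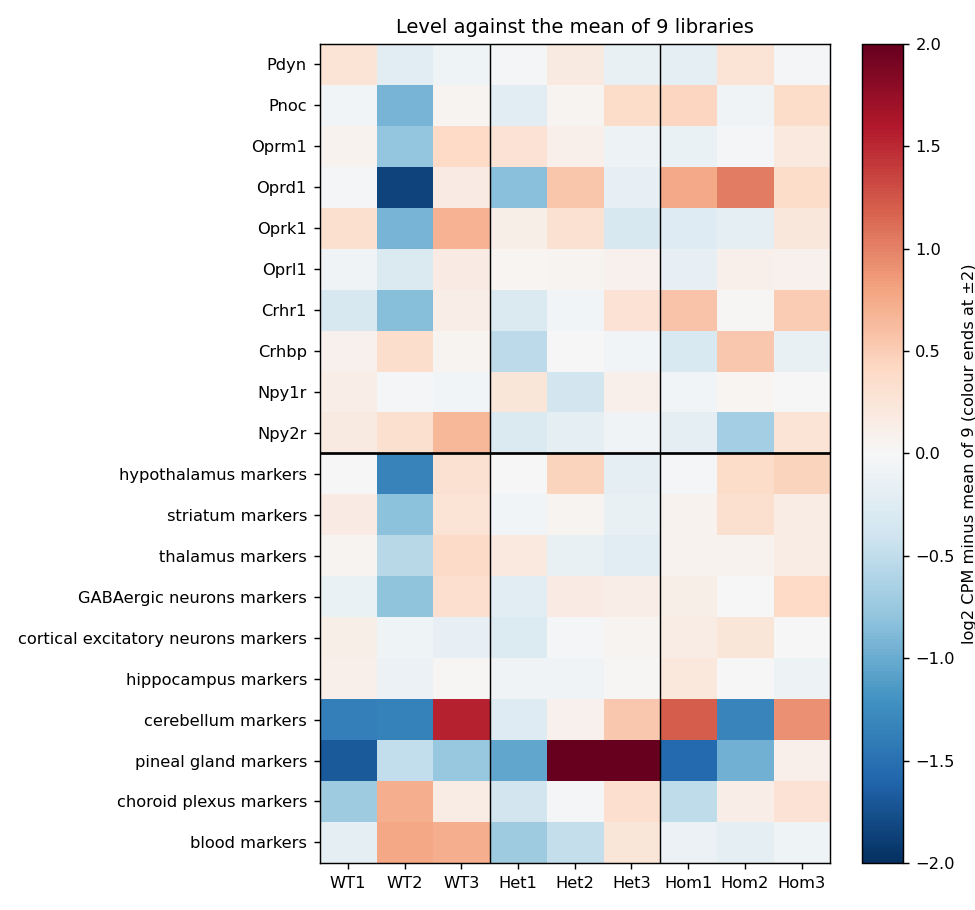
Log2 CPM of the 10 genes and of summed marker lists in each library, minus the mean of 9 (red higher, blue lower; colours end at ±2; WT, wild type; Het, heterozygous; Hom, homozygous). The column of wild-type rat 2 is blue for Pnoc, Oprm1, Oprd1, Oprk1 and Crhr1 and for hypothalamic, striatal, thalamic and GABAergic markers. The pituitary and brain-defining lists, whose sums were also lowest in this rat, are not drawn.

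A wider list of neuropeptides and their receptors, most of them outside the opioid, CRF and neuropeptide Y systems, did not pass adjustment either. Of 39 listed genes 27 were tested, and in homozygous against wild type edgeR called 0, while 1 had an unadjusted p under 0.05 (9.13% of all loci and 11.4% of symbol loci did). This was Mc4r, the melanocortin receptor that curbs feeding, at 0.765, 0.415 and 0.624 CPM in wild-type and 0.617, 1.10 and 1.35 CPM in homozygous rats (log2 fold change 0.80, SE 0.35; edgeR adjusted p = 0.544). Positive values were found for 25 of the 27, with a median log2 fold change of 0.38, beside 73.2% and 0.14 for symbol loci. Galanin (Gal) had a log2 fold change of 0.80 (SE 0.51), the neurokinin receptor Tacr3 0.38 (SE 0.25) and the PACAP receptor Adcyap1r1 0.22 (SE 0.14). Of the tested genes 5 (Penk, Pomc, Crh, Crhr2 and Npy5r) belong to the opioid, CRF or neuropeptide Y systems. They were singled out for this after their values were seen, and their edgeR adjusted p ranged from 0.617 to 0.875. The neuropeptide Y gene Npy itself, Pyy, Ppyr1 and the urocortin genes Ucn, Ucn2 and Ucn3 were listed but not tested.

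Of 15 genes that cut, trim or break down peptides 14 were tested, and edgeR called 0 in homozygous against wild type. Thop1, a peptidase that cuts dynorphin and other short peptides, stood at 10.6, 6.56 and 14.1 CPM in wild-type and 17.8, 15.7 and 14.2 CPM in homozygous rats (log2 fold change 0.61, SE 0.24; edgeR adjusted p = 0.544, with an unadjusted p under 0.05). Dpp3, an enkephalin-cleaving peptidase, had a log2 fold change of 0.31 (SE 0.19), the endothelin-converting enzyme Ece1 0.44 (SE 0.27) and Scg5, the partner of prohormone convertase 2, 0.31 (SE 0.19). Thop1 was the 1 of the 14 with an unadjusted p under 0.05 (9.13% of all loci and 11.4% of symbol loci did). Positive values were found for 8 of the 14, with a median of 0.14, beside 73.2% and 0.14 for symbol loci.

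Of 37 names listed for signalling behind these receptors 35 were found and tested, and edgeR called 0. The names Grk2 and Grk3 were not found. Besides G protein, adenylyl cyclase, kinase and arrestin genes, the list held ion channel and Rgs genes, Creb1, Nr3c1, Nr3c2 and Fkbp5. The receptor kinase genes Grk6 and Adrbk1 were the 2 of 35 with an unadjusted p under 0.05 (9.13% of all loci and 11.4% of symbol loci did). Grk6 stood at 22.1, 16.2 and 22.5 CPM in wild-type and 28.1, 28.4 and 26.2 CPM in homozygous rats (log2 fold change 0.45, SE 0.17; edgeR adjusted p = 0.544), and Adrbk1 had a log2 fold change of 0.40 (SE 0.16; edgeR adjusted p = 0.544). Every homozygous rat lay above every wild-type rat for 3 of these 35 genes (Grk6, Adrbk1 and Arrb1). The same held for 1 of the 14 peptidase and processing genes (Thop1) and 1 of the 27 peptides and receptors (Tacr1). Of all loci 7.28% did so, and the share of symbol loci was not taken. Arrb1 had 0.24 (SE 0.13) and the striatal cyclase gene Adcy5 0.40 (SE 0.23). Positive values were found for 31 of the 35, with a median of 0.15, beside 73.2% and 0.14 for symbol loci. In the other 2 comparisons no gene of the 3 lists was called or had an unadjusted p under 0.05.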

How the data were processed

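Reads were handled with cutadapt, HISAT2, StringTie and RSEM on rn6, per the submitters' processing notes, which give no versions or settings here. Deposited by the authors were RSEM expected counts and TPM per assembled locus, and expected counts, TPM and the percent of each isoform within its locus, per the file headers. Library files list 99 loci more than the series matrix, and their values otherwise matched it.

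Expected counts were rounded and tested with edgeR 4.0.16 in R 4.3.3: filterByExpr (39057 loci kept), TMM, a robust quasi-likelihood fit over all 9 libraries with genotype as the only term, and Benjamini-Hochberg adjustment over all loci, at 0.05. Isoforms were tested likewise. The genes, gene lists and marker lists were chosen with earlier results of these data known. All 10 genes were tested in every comparison, and each is given by value in homozygous against wild type. Also named are the 4 smallest p of each related list and the 2 most alike genes for each of the 10. Isoforms were named from at least 10% of counts (and 1 more where it is compared). Marker lists covered cerebellum, hypothalamus, striatum, hippocampus, cortical excitatory neurons, thalamus, pineal gland, GABAergic neurons, pituitary, choroid plexus, blood and brain as a whole. Alternatives used DESeq2 1.42.0, limma 3.58.1 (voom), other scalings and filters, 2 genotypes alone, symbol loci alone, a replicate block, and leaving out each rat. On simulated counts for homozygous against wild type (37207 loci), a small random sample of the loci was changed, with heterozygous rats midway on the log scale. Of these changed loci, edgeR recovered 8.96% of those changed 2-fold, 58.2% of those changed 4-fold and 75.8% of those changed 8-fold.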

Additional observations from a re-analysis of the deposited data

How the results depend on the processing

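None of the 10 genes passed an adjusted p of 0.05 in any comparison under any alternative run (the 1 CPM filter removes Oprd1); the smallest adjusted p was 0.0894 with a rat left out and 0.360 otherwise. Over the 10 genes and 3 comparisons, 31 of 300 log2 fold changes under other settings and 34 of 270 with a rat left out had the opposite sign to the value reported; for isoforms 0 of 52 and 10 of 117 did. The 2 settings chosen after seeing the data were library totals with no TMM and the sum of Oprd1 with its downstream locus. Under some settings unadjusted p fell under 0.05 for Npy2r and Pnoc too in homozygous against wild type. It also did for Crhr1 and Npy2r in heterozygous against wild type and for Oprd1 in homozygous against heterozygous. The Npy2r log2 fold change of homozygous against wild type ranged from -0.87 to -0.30 over all settings.

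In homozygous against wild type the sign changed for Oprm1 (-0.091 scaled on symbol genes, -0.0018 with a filter of 1 CPM in 3 libraries, -0.28 on library totals), Oprl1 (-0.10 scaled on symbol genes, -0.25 on library totals) and Pdyn (-0.15, -0.026 and -0.26 under the settings named for Oprm1). Npy1r was 0.018 with RLE size factors, 0.016 with no filter and 0.018 by DESeq2. With each rat left out in turn, values ranged from -0.23 to 0.34 for Oprm1, -0.57 to 0.15 for Oprk1, -0.040 to 0.22 for Oprl1, -0.093 to 0.19 for Pdyn, -0.039 to 0.043 for Npy1r and -0.37 to 0.080 for Crhbp, and for the leading isoforms -0.35 to 0.18 (Oprm1), -0.58 to 0.15 (Oprk1), -0.081 to 0.18 (Pdyn), -0.038 to 0.16 (Npy1r) and -0.35 to 0.086 (Crhbp). The cause was not tested.

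Over all loci, homozygous against wild type gave 0 calls, and 6 with no filter, 33 by DESeq2, 2 on symbol loci alone, 1 with the replicate block, 5 on library totals and 0 to 5 with a rat left out. Heterozygous against wild type gave 3, and 1 scaled on symbol genes, 5 with no filter, 1 with the 1 CPM filter, 18 by DESeq2, 7 with the 2 genotypes alone, 1 on symbol loci alone and 1 to 28 with a rat left out (28 without heterozygous rat 1). Homozygous against heterozygous gave 1, and 2 each with RLE, no filter, limma-voom, the 2 genotypes alone, the replicate block and library totals, 6 by DESeq2, 0 on symbol loci alone and 1 to 18 with a rat left out (18 without heterozygous rat 1). Isoforms gave 0, and 7 with no filter, 343 by DESeq2 and 0 to 5 with a rat left out. None of these calls was of the 10 genes or of their isoforms with at least 10% of counts.

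The labels do not say that same-numbered rats were paired. Same-numbered rats had correlations of deviations from -0.18 to 0.40, others from -0.51 to 0.39. Of 9 libraries, 4 correlated best with their own number. Whether the numbers mark a pairing or a batch was not tested by these values. The replicate block (1, 3 and 2 calls in the 3 comparisons) is given as an alternative, not as a paired analysis. Simulated 2-fold changes were recovered for 8.96% of loci, so changes of that size may be missed at 3 rats per genotype. Oprd1 rests on 5 to 41 counts per library.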
